A study of Mus musculus with 2 samples.

Results

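The receptors and signal transducers of the interferon pathway were followed in single cells of the mouse cochlea. They are 9 genes, taken as the rows of both count matrices that carry the symbols Ifnar1, Ifnar2, Ifngr1, Ifngr2, Jak1, Tyk2, Stat2, Irf9 and Socs1, out of 32285 genes in each matrix. All 9 had counts in both libraries. The AAV-Isl1 plus noise library came from cochleae given an adeno-associated virus carrying the transcription factor gene Isl1 and then exposed to noise of 105 dB at 1 to 20 kHz for 2 h. The noise only library came from the contralateral ears of the same mice, which received no virus and heard the same noise. The mice were wild-type CBA/CaJ, 4-6 weeks old, 5 per library, and the tissue was taken 2 days after the exposure. The cells of the 5 ears of a group were pooled, so each group is 1 library and no test between groups was possible. No group had virus without Isl1 and none was spared the noise, so the vector, the transgene and the handling of the treated ear cannot be told apart.

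Interferons are secreted proteins that act on neighbouring cells. Type I interferons bind a receptor made of the IFNAR1 and IFNAR2 chains, and the kinases JAK1 and TYK2 attached to these chains activate STAT2, which joins IRF9 in a complex that binds DNA at interferon-stimulated response elements. Interferon gamma binds IFNGR1 and IFNGR2 and acts mainly at gamma-activated sites, and SOCS1, made in response to both kinds of interferon, blocks the kinases. Stat2, Irf9 and Socs1 are both parts of the pathway and known targets of it.

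After quality filters and doublet removal 21735 cells were kept in the AAV-Isl1 plus noise library and 18757 in the noise only library, with medians of 1086 and 1048 unique molecular identifiers (UMIs, counted RNA molecules) per cell. Both matrices held far more barcodes, 24209 and 21068, than the number of cells that the labels say was loaded, and 145 barcodes occurred in both. Cells were grouped into classes named from marker genes, and a group whose markers did not give a name was called by its cluster number. So was any cluster with Otol1 or Vwf among its 10 leading genes, whatever its other markers. Comparisons were limited to the 18 classes that held 90 cells or more in both libraries. The labels call the tissue sensory epithelium, but only 324 of 21735 and 94 of 18757 cells were hair cell-like, and glia, fibrocytes, neurons, vessels, stria vascularis and blood cells made up most of the rest. Levels are UMIs per 1000000 UMIs of the class (CPM), ratios divide the AAV-Isl1 plus noise level by the noise only level, and all brackets hold 95% intervals that cover counting error only, not the spread between mice. Counts of Isl1 can come from the vector or the resident gene. Isl1 stood at 1208 CPM against 122 CPM in cluster 27, 578 against 47.4 CPM in hair cell-like cells and 104 against 15.5 CPM in cluster 18. Its ratio was also above 1 in classes without a higher type I interferon response as defined below. Among them were cluster 14 (56.1 against 4.48 CPM) and the fibrocyte or mesenchymal-like class (19.2 against 2.87 CPM). The ratio was below 1 in the neuron-like (257 against 304 CPM), erythroid-like (48.2 against 50.9 CPM), macrophage-like and T or NK cell-like classes.

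Genes of 3 receptor chains lie close together. On mouse chromosome 16 (GRCm38) Ifnar2 spans chr16:91372783-91405589, Ifnar1 chr16:91485238-91507441 and Ifngr2 chr16:91547072-91565623, all on the plus strand, with Il10rb, a chain of the interferon lambda receptor, between them at chr16:91406164-91425834. Socs1 lies far off on the same chromosome, at chr16:10782240-10785536 on the minus strand. Ifngr1 (chr10:19591949-19610229, plus) and Stat2 (chr10:128270559-128292849, plus) share chromosome 10. Jak1 is at chr4:101152367-101265282 (minus), Tyk2 at chr9:21104068-21131243 (minus) and Irf9 at chr14:55603571-55610030 (plus). Irf9 overlaps its upstream neighbour Rnf31, on the same strand, by 123 bases, so a few reads could belong to either gene. Ifnar2 overlaps the read-through gene Gm21970 on the same strand. Tyk2 overlaps the antisense gene 1700084C06Rik, and Jak1 overlaps Raver2 on the opposite strand by 4 bases; whether the counting used strand is not given in the sources used here.

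The promoters of the members were read for the letters that the pathway's own factors bind, in the 250 bases before each RefSeq transcript start (GRCm38.p6). The response element was searched as the letters GAAA repeated after a gap of any 2 bases, and the gamma-activated site as TTCNNNGAA, where N is any base, on both strands. The first was present in 978 of 32851 promoters (2.98%) and the second in 2306 (7.02%). Among 34 promoters of type I interferon-stimulated genes 29.4% held the response element and 11.8% the gamma-activated site, and among 16 promoters of interferon gamma-stimulated genes 50.0% held the response element and 43.8% the gamma-activated site. Of the 10 promoters of the 9 members, 3 held a match, and these are shown because they belong to the inhibitor, a transducer and a receptor chain, with the matched letters in capitals.

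Socs1, chr16:10785537-10785786, minus strand: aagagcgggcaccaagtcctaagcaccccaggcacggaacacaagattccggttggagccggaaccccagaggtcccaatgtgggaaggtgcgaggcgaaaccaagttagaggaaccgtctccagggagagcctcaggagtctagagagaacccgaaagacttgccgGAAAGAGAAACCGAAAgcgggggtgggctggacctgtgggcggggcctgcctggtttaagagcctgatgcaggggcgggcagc
Stat2, chr10:128270248-128270497, plus strand: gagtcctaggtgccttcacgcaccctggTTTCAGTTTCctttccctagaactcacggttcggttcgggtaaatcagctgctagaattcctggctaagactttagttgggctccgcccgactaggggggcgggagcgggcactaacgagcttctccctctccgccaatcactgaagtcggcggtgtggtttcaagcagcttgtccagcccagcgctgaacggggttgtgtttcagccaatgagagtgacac
Ifnar2, chr16:91372533-91372782, plus strand: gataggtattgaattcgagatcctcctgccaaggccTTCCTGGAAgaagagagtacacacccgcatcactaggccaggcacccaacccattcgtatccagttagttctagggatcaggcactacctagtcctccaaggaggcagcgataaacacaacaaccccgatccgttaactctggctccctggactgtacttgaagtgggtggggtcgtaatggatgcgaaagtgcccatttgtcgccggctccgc

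Socs1 had 2 response elements that share bases, GAAAGAGAAA at 83 and GAAACCGAAA at 77 bases before the start. Stat2 had TTTCAGTTTC, the response element read on the other strand, 222 bases before the start, and Ifnar2 had the gamma-activated site TTCCTGGAA 214 bases before its start. Neither string was in these windows of Ifnar1, Ifngr1, Ifngr2, Jak1, Tyk2 or either promoter of Irf9. Both Irf9 windows (chr14:55603735-55603984 and chr14:55604329-55604578) lie inside the gene span given above. The bases before the start of that span were not searched, so absence of a match upstream of Irf9 cannot be read from them. A match is a string of letters and not evidence of binding.

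Classes were then divided by whether their type I interferon response was higher in the AAV-Isl1 plus noise library. The measure was a list of 43 type I interferon-stimulated genes that holds none of the 9 members, 41 of which are in the files. A class was called higher where at least 5 genes of the list had 20 UMIs, their median log2 ratio was at least 0.25 and at least 75% of them had a ratio above 1. Of the 18 classes 4 met this rule. Cluster 27, led by Otol1, Otog and Tectb, genes of the extracellular matrix over inner ear sensory patches, had all 17 measured genes above 1, a median log2 ratio of 1.48 and a summed level of 4773 against 910 CPM. Cluster 18, led by Vmo1, Crhbp and Rnase1, had 26 of 30 above 1, a median of 1.10 and a summed level of 7865 against 3906 CPM.

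Hair cell-like cells and cluster 13, led by Prg4, lay at the edge of the rule. Hair cell-like cells had 5 of 5 genes above 1 with a median of 0.73, the smallest number of genes the rule admits, and cluster 13 had 22 of 29 (75.9%) with a median of 0.28. Just outside, T or NK cell-like cells and cluster 25, led by the myelin genes Ermn and Mog, each had a median of 0.26 with 66.7% of genes above 1, and cochlear non-sensory epithelium-like cells had 0.41 with 63.3%. With 2 other clustering seeds, added after seeing the data, the counterpart of cluster 18 led by Vmo1 (522 and 398 cells) was called higher both times, a cluster led by Otol1 with 1 seed and hair cell-like cells with 1 seed.

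By the same rule a list of 20 interferon gamma targets was higher in 11 of the 18 classes. These were clusters 13, 14 and 18 and the cochlear non-sensory epithelium-like, fibrocyte or mesenchymal-like, macrophage-like, neuron-like, osteoblast or osteocyte-like, Schwann or satellite glia-like, stria intermediate cell-like and stria marginal cell-like classes. All of them except clusters 13 and 18 count below as without a higher response, which there means the type I list alone. In cluster 18 all 16 measured genes of the gamma list were above 1, with a median log2 ratio of 3.01 and a summed level of 1567 against 203 CPM. The medians of the other classes called by it ran from 0.36 in cluster 13 to 1.52 in cluster 14. Of the cells of cluster 18 thinned to 1000 UMIs, 228 of 450 (50.7%) against 58 of 367 (15.8%) held a UMI of this list. Erythroid-like cells, taken as a comparison for free RNA, which was not itself measured, held one in 26.7% against 25.5%. Cluster 27 had 2 measured genes of that list and hair cell-like cells and cluster 25 had 0, too few for the rule.

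In cluster 18 the inhibitor Socs1 and the transducer Irf9 differed most between libraries, and both type I receptor chains were within 1.5-fold. Ifnar1, the low-affinity chain, had 17 and 19 UMIs, 14.7 CPM in AAV-Isl1 plus noise and 18.5 CPM in noise only, with a ratio of 0.795 (0.388-1.62). Ifnar2, the high-affinity chain, had 111 and 122 CPM, a ratio of 0.910 (0.706-1.17). Both intervals included 1 and extended to 1.62 and 1.17 at the upper end. Ifngr1, the ligand-binding chain of the gamma receptor, had 39.7 CPM against 29.1 CPM (1.36, 0.842-2.24). Ifngr2, its signalling partner, had 12.1 CPM against 5.83 CPM, a ratio of 2.07 that rested on 14 and 6 UMIs and whose interval (0.749-6.58) included 1. It was 0.612 (0.0896-3.62) with cells thinned to 1000 UMIs, so its direction is not settled. Leaving out the 5 cells of each library with the most Ifngr2 UMIs gave 7.96 (1.10-349). That step left almost no noise only UMIs, because the 6 lay in 6 cells.

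The kinase Jak1, shared by all interferon receptors, had 122 CPM in AAV-Isl1 plus noise and 88.4 CPM in noise only in cluster 18, from 141 and 91 UMIs. Its ratio was 1.38 and the interval (1.05-1.81) lay above 1, although it fell short of the 1.5-fold that was used for a call. Tyk2, the kinase of IFNAR1, had 4 UMIs in each library, too few for a ratio.

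Stat2, Irf9 and Socs1 were each more than 1.5-fold higher in cluster 18. Stat2 had 30.2 CPM against 14.6 CPM, from 35 and 15 UMIs, with a ratio of 2.07 (1.10-4.09). Irf9, the DNA-binding subunit of the complex with STAT2, had 121 CPM against 44.7 CPM, from 140 and 46 UMIs, with a ratio of 2.70 (1.93-3.86). Its overlapping neighbour Rnf31 had 25.0 against 21.4 CPM (1.17, 0.650-2.14). Socs1 had 69.0 CPM against 8.74 CPM, from 80 and 9 UMIs in 56 and 7 cells, a ratio of 7.90 (3.96-17.9). The ratio was 27.4 (7.27-232) without the 5 cells of each library with the most Socs1 UMIs. That step left few noise only UMIs, because they lay in 7 cells, so 27.4 is not a stronger result. Stat2, Irf9 and Socs1 are the 3 members that are also known interferon targets.

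The background in cluster 18 was that 12.7% of 9405 measured genes were at least 1.5-fold higher and 8.16% at least 1.5-fold lower. Of the 8 members with 20 UMIs there, 4 were higher and 0 lower. The 4 were Stat2, Irf9, Socs1 and Ifngr2, and the call of Ifngr2 was lost on thinning. After thinning every cell to 1000 UMIs, Irf9 was found in 10.0% of cells (45 of 450) against 6.27% (23 of 367), and Socs1 in 5.56% (25 of 450) against 0.817% (3 of 367). Without thinning these shares were 20.0% against 10.8% for Irf9 and 10.8% against 1.76% for Socs1. In erythroid-like cells the thinned shares were 2.36% against 3.85% for Irf9 and 1.67% against 2.88% for Socs1. The noise only share of Socs1 in cluster 18 was thus below that of erythroid-like cells. Single erythroid-like cells held up to 4 and 3 Socs1 UMIs, and free RNA was not measured. Whether the noise only share in cluster 18 is background was not tested. Cells under 1000 UMIs, 70 of 520 and 31 of 398, had no part in these shares, and median depths were 1758 and 2317 UMIs in cluster 18 and 2001 and 2374 in erythroid-like cells.

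Cluster 27 had far fewer molecules, and the members past 1.5-fold there were Irf9 and Socs1. Ifnar2 had 34 and 9 UMIs, 76.2 CPM in AAV-Isl1 plus noise and 57.7 CPM in noise only (1.32, 0.621-3.13). Jak1 had 57 and 18 UMIs, 128 against 115 CPM (1.11, 0.642-2.00). Irf9 had 39 UMIs in 34 cells against 4 UMIs in 4 cells, 87.4 against 25.6 CPM, and its ratio of 3.41 had an interval (1.23-13.1) above 1. Socs1 had 20 UMIs against 0, 44.8 CPM against 0, and a ratio of 2.33 when the 0 is replaced by 3 counts in that library. That value is not the lower end of an interval. Stat2, with 15 and 2 UMIs (33.6 against 12.8 CPM), stayed under the 20 UMIs required for a ratio, as did Ifnar1, Ifngr1, Ifngr2 and Tyk2. In this cluster 14.2% of 4859 genes were at least 1.5-fold higher and 12.5% at least 1.5-fold lower, and of the 4 members with 20 UMIs Irf9 and Socs1 were higher and 0 lower.

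**Figure D1:**
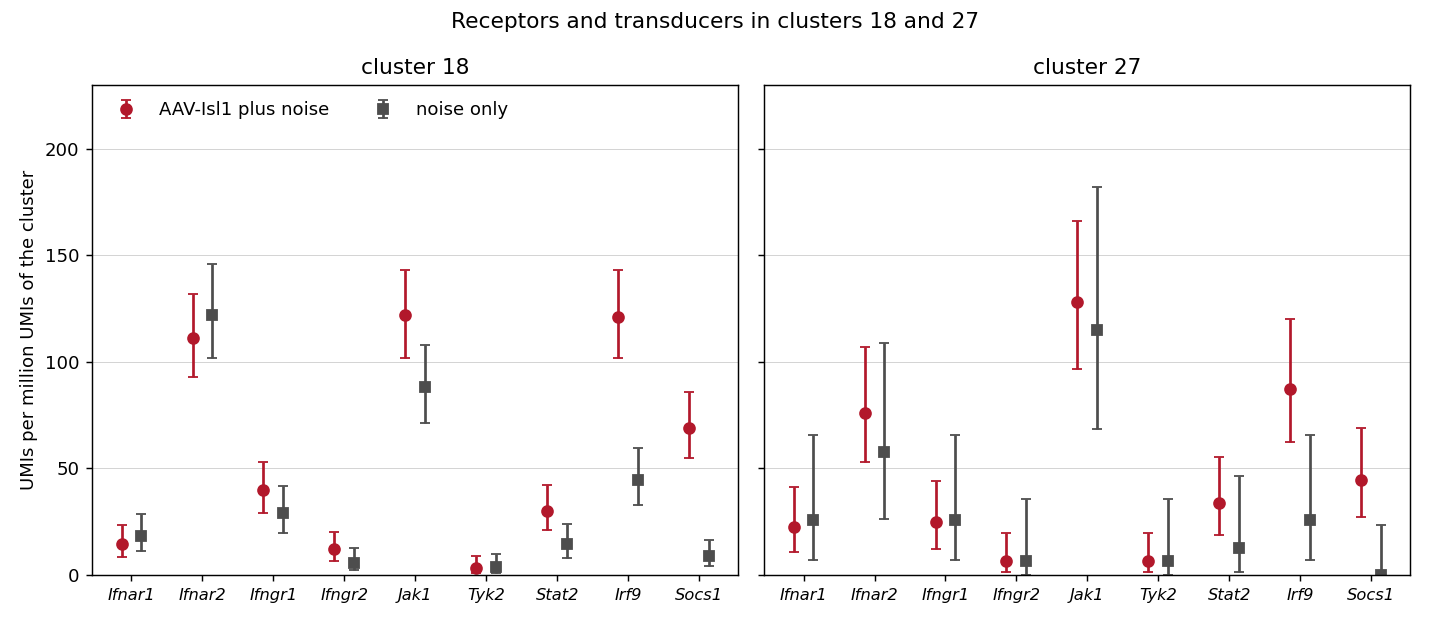
Level of each member in clusters 18 and 27, in UMIs per 1000000 UMIs of the cluster, for AAV-Isl1 plus noise (red circles) and noise only (grey squares), with exact Poisson 95% intervals as bars. The intervals of Irf9 and Socs1 do not overlap between libraries in cluster 18 (121 against 44.7 and 69.0 against 8.74 CPM), while those of both type I receptor chains do.

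In the other classes called higher the members differed less. In cluster 13 Ifnar2 had 100 CPM in both libraries (0.997, 0.767-1.30), Irf9 had 34.8 against 31.2 CPM (1.11, 0.699-1.80), Stat2 25.9 against 18 CPM (1.44, 0.803-2.67) and Socs1 17.8 against 14.2 CPM (1.25, 0.631-2.57). None of its 9 ratios had an interval that excluded 1. Hair cell-like cells had so few UMIs that Jak1 alone could be given a ratio, 107 CPM in each library (1.00, 0.563-1.85). There Irf9 had 6 UMIs against 0, Socs1 1 against 0, Stat2 0 against 1 and Ifngr1 0 against 6.

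Transcripts of immune cells differed between libraries in these clusters and in other classes. In cluster 18 the 14 macrophage markers summed to 142 CPM against 28.2 CPM, with 11 against 9 genes found, and Csf1r, Adgre1, Ms4a7, Cd163 and F13a1 were at 0 in noise only. The 12 neutrophil markers summed to 88.0 against 5.83 CPM, Lyz2 stood at 88.0 against 7.77 CPM, and the 13 T or NK cell markers had 5 UMIs against 0, with Cd3e at 0 in both. The cluster's own leading genes were lower, Vmo1 at 5138 against 10229 CPM and Crhbp at 3131 against 7672 CPM. In cluster 27 the macrophage markers had 30 UMIs against 0, the T or NK cell markers 18 against 0 and the neutrophil markers 108 against 6.41 CPM. In hair cell-like cells the neutrophil markers summed to 1079 against 17.8 CPM and in cluster 13 to 197 against 5.68 CPM. In classes without a higher response Lyz2 was 62.3 against 2.03 CPM (stria marginal cell-like) and 26.3 against 3.33 CPM (neuron-like). It was 38.3 against 49.6 CPM in osteoblast or osteocyte-like cells. AAV-Isl1 plus noise kept 461 neutrophil-like cells against 24 in noise only, and 433 T or NK cell-like cells against 118. The part of these transcripts in the member ratios was not tested.

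The 14 classes without a higher response were not all unchanged. Their ratio of the summed type I level ran from 0.636 (0.614-0.659) in the stria marginal cell-like class to 1.51 (1.39-1.65) in cluster 14. It was also below 1 in the stria intermediate cell-like (0.877), Schwann or satellite glia-like (0.910) and endothelial-like (0.927) classes, and above 1 in the others. Over all kept cells it was 0.952 (0.946-0.959). Taking the 4 classes with a higher response and the 14 without as strata, an exact common ratio was computed for each member. The receptor chains were near 1 on both sides. Ifnar1 had 1.11 (0.765-1.61) with and 1.09 (0.999-1.18) without, Ifnar2 0.96 (0.808-1.14) with and 0.942 (0.896-0.992) without, and Ifngr1 1.13 (0.850-1.5) with and 0.966 (0.894-1.04) without. Ifngr2 had 1.09 (0.665-1.80) with and 0.938 (0.853-1.03) without. For every chain the interval of the classes with a higher response held the value of those without.

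The kinases and transducers differed more between the sides. Jak1 had a common ratio of 1.21 (1.02-1.44) in the classes with a higher response and 0.939 (0.896-0.983) in those without, intervals that do not overlap. Taken by cluster, as described below, its median ratio was 0.942 in clusters with a higher response and 0.989 in those without. Tyk2, with 25 and 14 UMIs in the first set, had 1.25 (0.619-2.61) and 0.888 (0.721-1.09). Stat2 had 1.72 (1.15-2.61) and 1.05 (0.934-1.18), which overlap only between 1.15 and 1.18. Irf9 had 2.14 (1.66-2.79) and 0.945 (0.878-1.02), and Socs1 4.05 (2.60-6.58) and 1.11 (1.03-1.2). The Jak1, Irf9 and Socs1 values depended on which classes were called. With a median limit of 0.5, which drops cluster 13, Socs1 was 8.77, and with cells thinned to 1000 UMIs, where cochlear non-sensory epithelium-like cells took the place of hair cell-like cells, it was 1.90. With clusters as strata Socs1 was 1.54, and with the classes divided by the gamma list it was 1.18, Irf9 1.03, Stat2 1.14 and Jak1 0.948. Clusters 18 and 27 supplied most of the AAV-Isl1 plus noise UMIs of Irf9 and Socs1 in the first set.

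**Figure D2:**
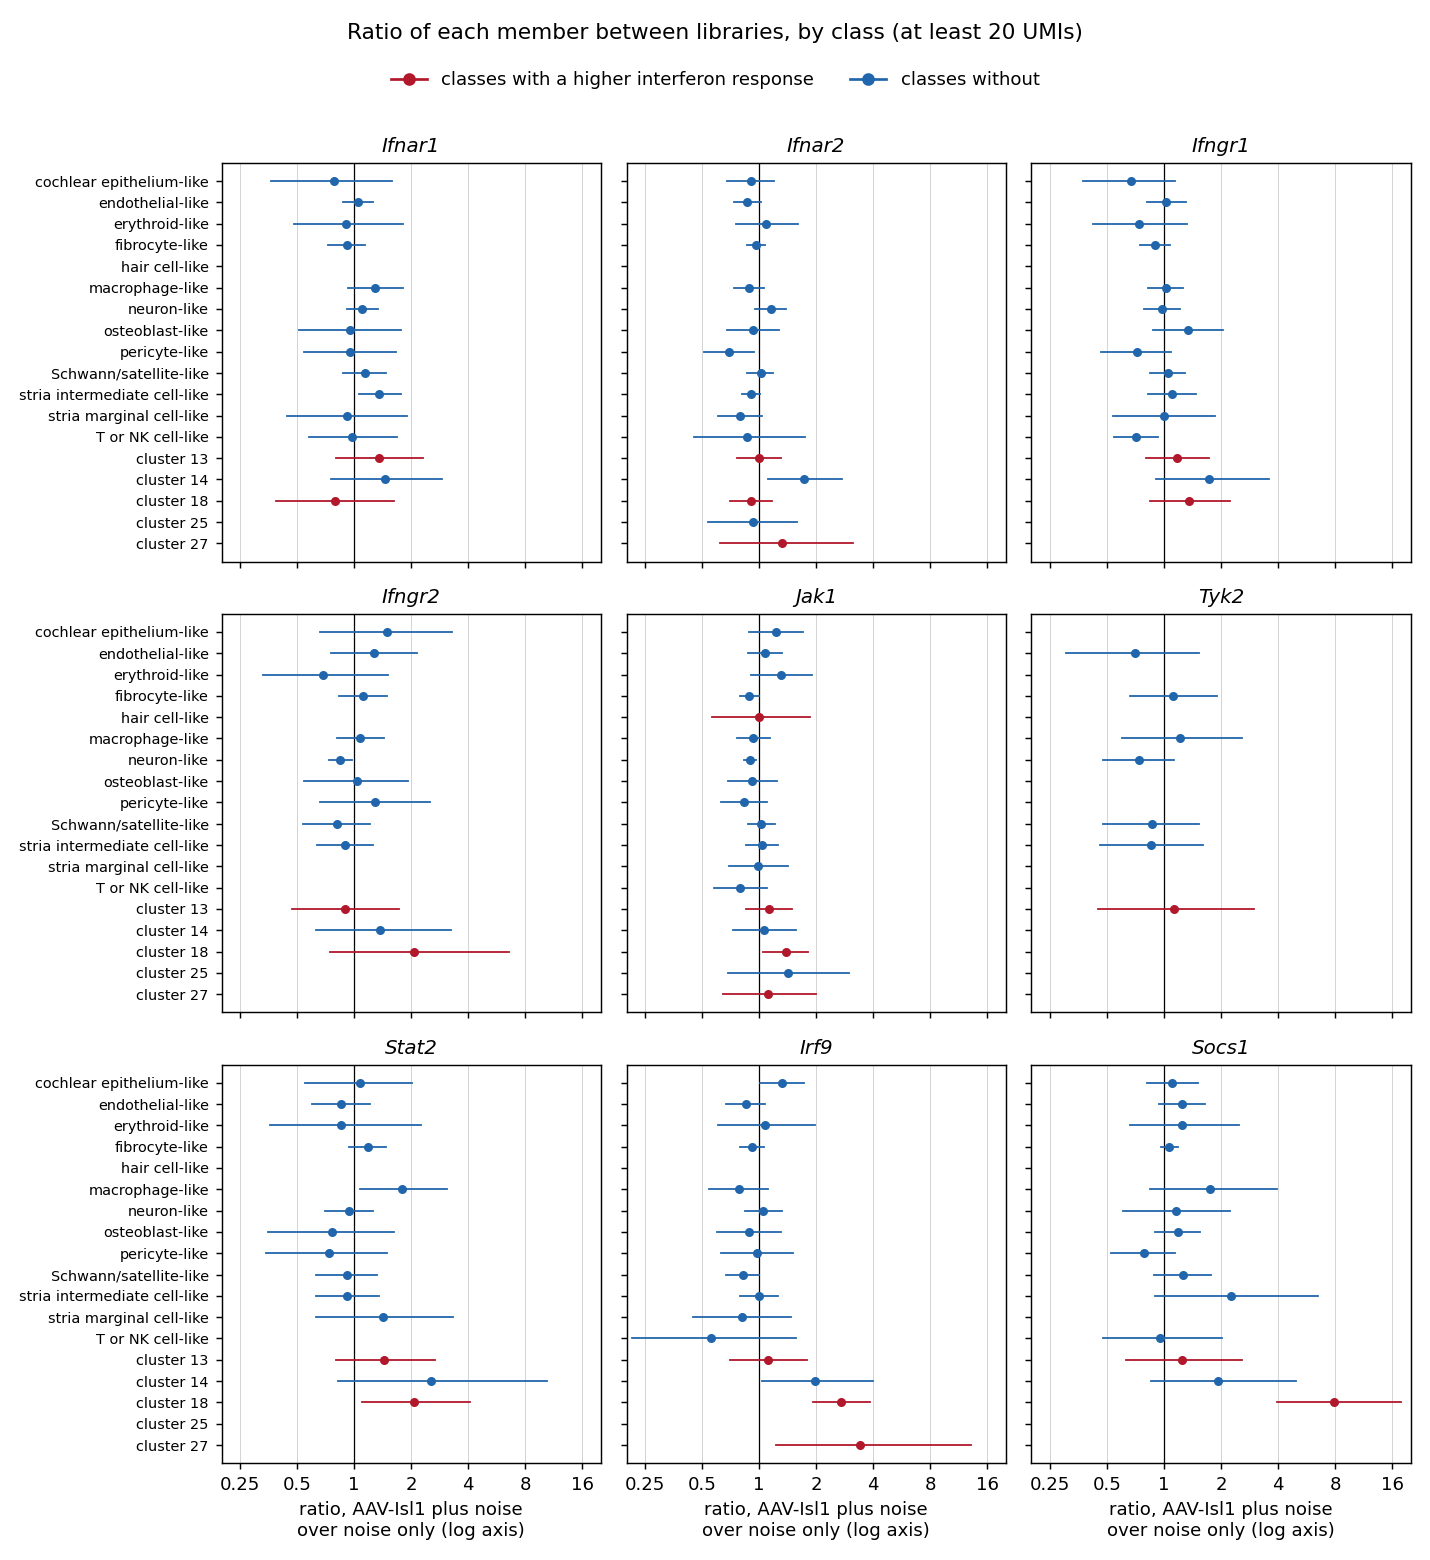
Ratio of AAV-Isl1 plus noise over noise only for each member (log axis) in every class with at least 20 UMIs, with exact 95% intervals, in red for the 4 classes with a higher type I interferon response and in blue for the 14 without. Ratios of the receptor chains lie around 1 in both colours except Ifngr2 in cluster 18 (2.07) and Ifnar2 and Ifngr1 in cluster 14 (1.73 and 1.74), and the red points of Irf9 and Socs1 in cluster 18 (2.70 and 7.90) and of Irf9 in cluster 27 (3.41) lie to the right of most blue ones; Socs1 in cluster 27 is not drawn because noise only was at 0.

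The median level of each receptor chain was lower in the classes with a higher response than in those without, in both libraries, and the ranges overlapped. In AAV-Isl1 plus noise the median class level of Ifnar1 was 22.9 CPM in the 4 classes with a higher response and 30.3 CPM in the 14 without, and in noise only it was 21.1 and 27.8 CPM. For Ifnar2 the medians were 88.1 and 95.1 CPM in AAV-Isl1 plus noise, and 79.0 and 105 CPM in noise only. The 4 classes lay inside the range of the 14 for Ifnar2 (28.7 to 111 CPM within 28.5 to 276 CPM in AAV-Isl1 plus noise), but for Ifnar1 they reached below it (lowest 14.7 against 15.2 CPM in that library), as they did for Ifngr1 (lowest 0, in hair cell-like cells, against 18.7 CPM). Ifngr1 had medians of 32.2 and 37.6 CPM in AAV-Isl1 plus noise and 32.3 and 39.8 CPM in noise only, and Ifngr2 had 11.3 and 20.2 CPM in AAV-Isl1 plus noise and 12.1 and 16 CPM in noise only. The order of Irf9 turned with the library, with medians of 61.1 and 41.7 CPM in AAV-Isl1 plus noise, and 28.4 and 57.0 CPM in noise only. Socs1 did likewise, with 31.3 and 24.0 CPM in AAV-Isl1 plus noise, and 4.37 and 17.6 CPM in noise only.

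**Figure D3:**
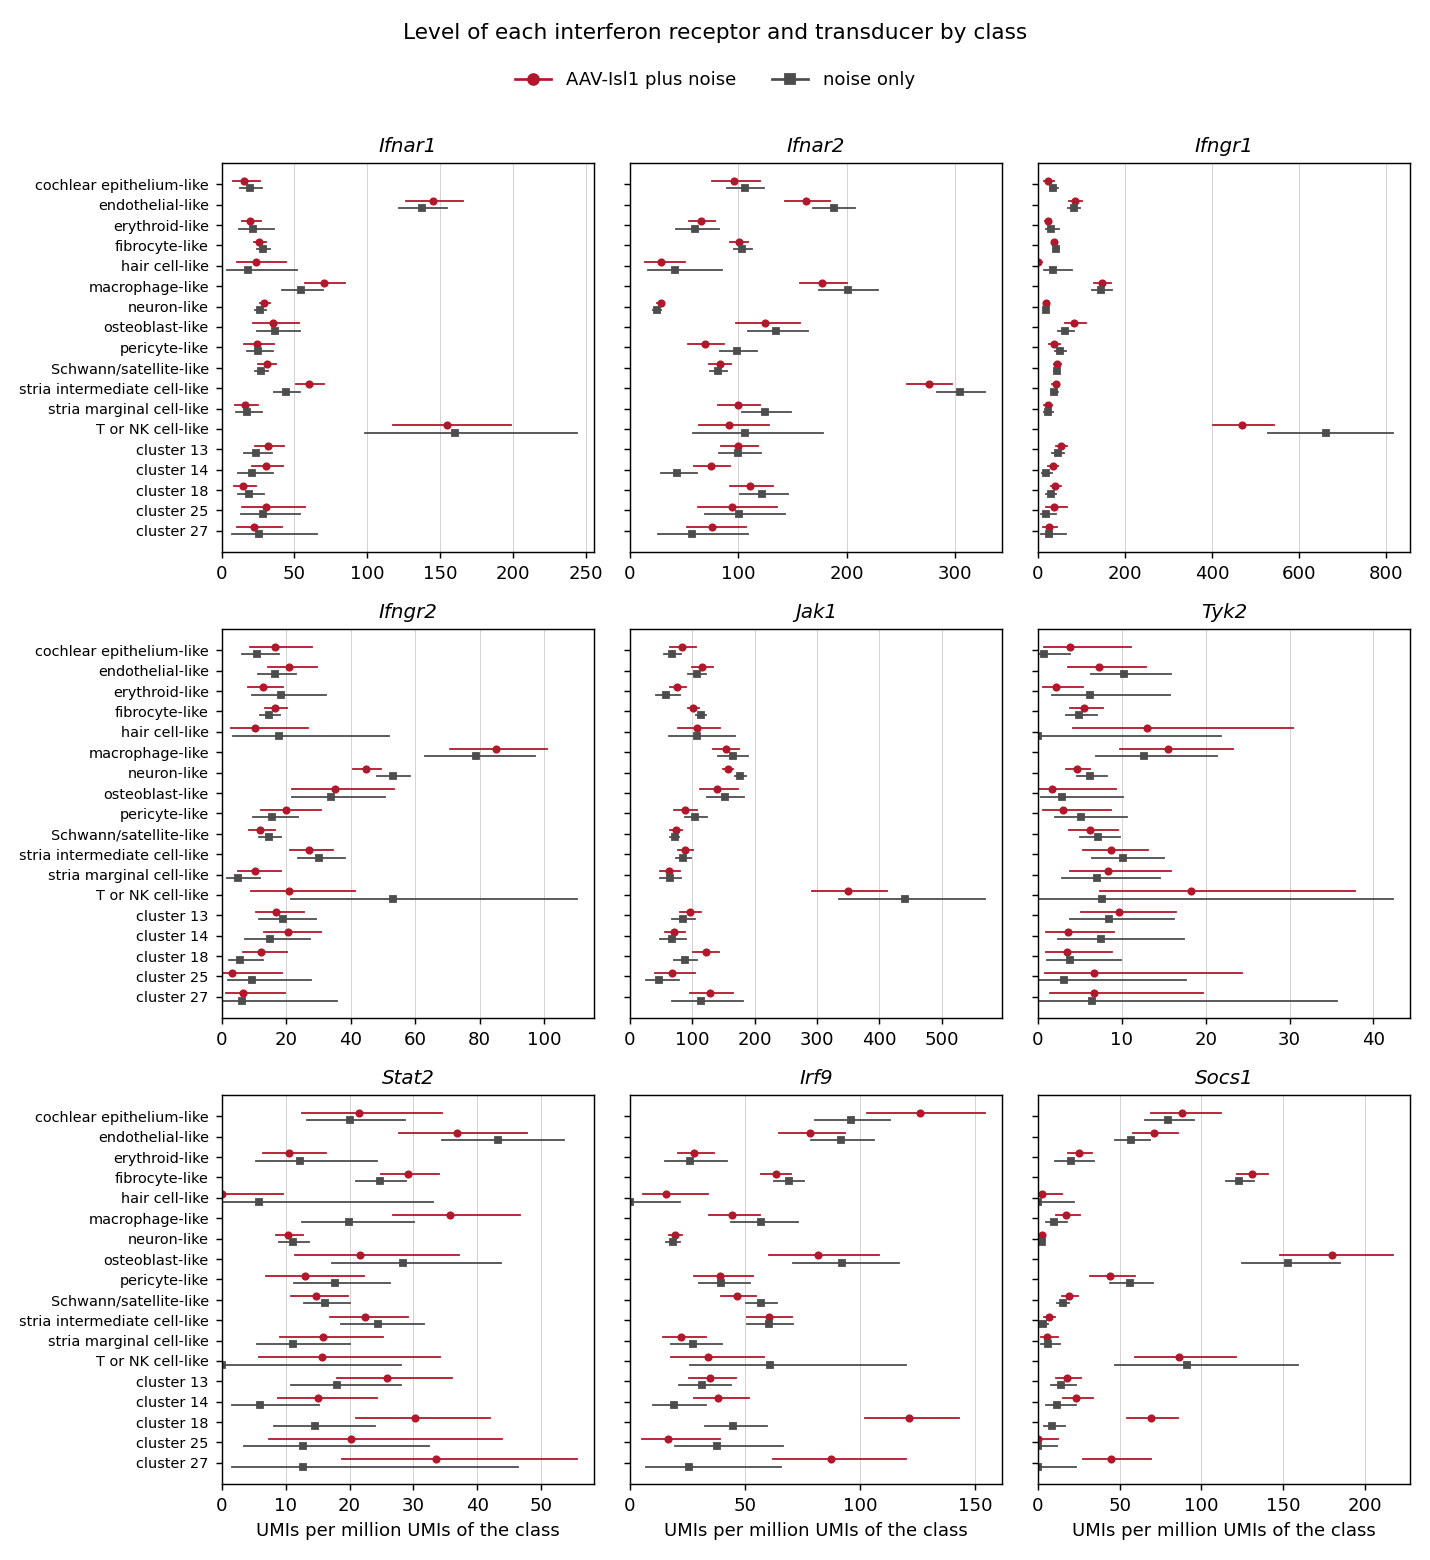
Level of each member in the 18 classes, in UMIs per 1000000 UMIs of the class, for AAV-Isl1 plus noise (red circles) and noise only (grey squares), with exact Poisson 95% intervals; the horizontal scale differs between panels. T or NK cell-like cells stand at the far right for Ifngr1 (469 and 661 CPM) and Jak1 (349 and 441 CPM), stria intermediate cell-like cells for Ifnar2 (276 and 305 CPM), and osteoblast or osteocyte-like cells for Socs1 (180 and 153 CPM).

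The classes with the most receptor transcript were immune, vascular and strial. Ifnar1 was highest in T or NK cell-like cells, 155 CPM in AAV-Isl1 plus noise and 160 CPM in noise only, and in endothelial-like cells, 145 and 138 CPM, whose intervals overlapped each other but not those of the next class, macrophage-like cells, at 70.1 and 54.3 CPM. It was lowest in stria marginal cell-like cells, cluster 18 and cochlear non-sensory epithelium-like cells, which averaged 16.5, 16.6 and 17.2 CPM over the libraries and did not differ beyond their intervals. Ifnar2 was highest in stria intermediate cell-like cells, the pigmented cells of the stria vascularis, at 276 and 305 CPM, apart from macrophage-like cells at 177 and 201 CPM and endothelial-like cells at 163 and 188 CPM, which overlapped. Neuron-like cells were lowest at 28.5 and 24.7 CPM, next to hair cell-like cells at 28.7 and 41.4 CPM.

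Ifngr1 was highest in T or NK cell-like cells, at 469 CPM in AAV-Isl1 plus noise and 661 CPM in noise only, followed at a distance by macrophage-like cells at 148 and 146 CPM. It was lowest in neuron-like cells, at 18.7 and 19.2 CPM, and hair cell-like cells, which averaged 17.8 CPM. Ifngr2 had another order, with macrophage-like cells first at 84.9 and 78.7 CPM, and neuron-like cells next at 44.9 and 53.1 CPM. The lowest averages were 6.43 CPM in cluster 25 and 6.57 CPM in cluster 27.

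The balance of the chains within a receptor therefore varied by class. The share compares UMIs of different genes, which 3' counting samples unequally, so only its variation across classes can be read. Ifnar2 made up 71.2% of the Ifnar1 and Ifnar2 UMIs of all kept cells in AAV-Isl1 plus noise and 74.4% in noise only. The share was 88.4% against 86.9% in cluster 18, and 37.2% against 40.0% in T or NK cell-like cells. Neuron-like cells had 49.2% against 48.1%. Ifngr2 made up 70.5% against 73.5% of the Ifngr1 and Ifngr2 UMIs in neuron-like cells, but 4.28% against 7.45% in T or NK cell-like cells and 36.4% against 35.1% in macrophage-like cells. In these classes the libraries resembled each other more than the classes did.

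**Figure D4:**
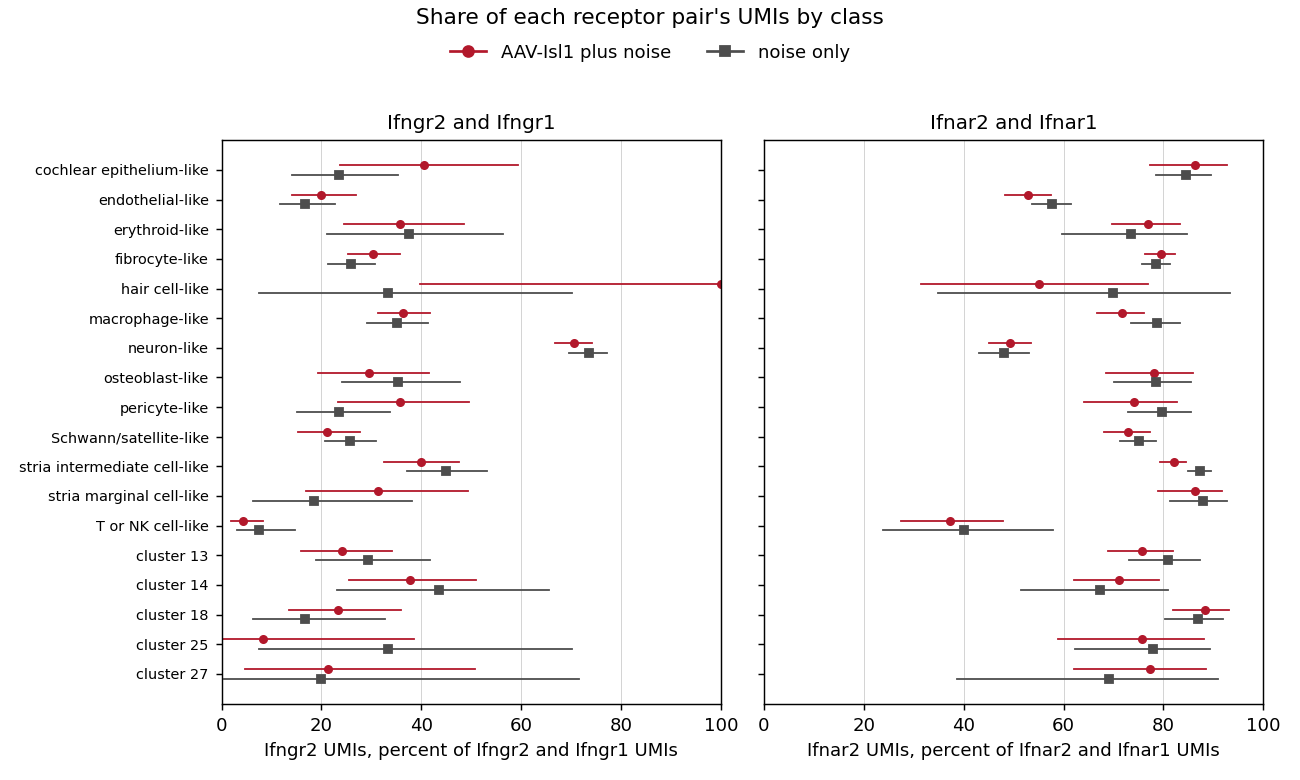
Share of Ifngr2 in the UMIs of Ifngr2 and Ifngr1 (left) and of Ifnar2 in the UMIs of Ifnar2 and Ifnar1 (right), in percent, by class, for AAV-Isl1 plus noise (red circles) and noise only (grey squares), with exact binomial 95% intervals. Neuron-like cells stand out with an Ifngr2 share of 70.5% and 73.5%, and T or NK cell-like cells have the lowest share of both Ifngr2 (4.28% and 7.45%) and Ifnar2 (37.2% and 40.0%).

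Among the kinases, Jak1 was measured in all 18 classes. T or NK cell-like cells had 349 CPM in AAV-Isl1 plus noise and 441 CPM in noise only, apart from neuron-like cells at 158 and 177 CPM and macrophage-like cells at 154 and 165 CPM. Cluster 25 was lowest with an average of 57.4 CPM. Tyk2 reached 20 UMIs in 7 classes only, and its highest averages were 14.1 CPM in macrophage-like cells and 13 CPM in T or NK cell-like cells, the second from 8 UMIs in all.

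Stat2 was highest in endothelial-like cells, at 36.8 CPM in AAV-Isl1 plus noise and 43.2 CPM in noise only, and its neighbours in the order overlapped from there down to hair cell-like cells, with 1 UMI in all. Irf9 was highest in cochlear non-sensory epithelium-like cells, at 126 and 95.9 CPM, then in osteoblast or osteocyte-like cells at 81.7 and 92.0 CPM and endothelial-like cells at 78.2 and 91.5 CPM. Cluster 18, at 121 and 44.7 CPM, was near the top in AAV-Isl1 plus noise and in the middle of the order in noise only. Neuron-like cells had 19.6 and 18.6 CPM of Irf9.

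Socs1 varied widely across classes. Osteoblast or osteocyte-like cells had 180 CPM in AAV-Isl1 plus noise and 153 CPM in noise only, fibrocyte or mesenchymal-like cells 131 and 123 CPM, T or NK cell-like cells 86.5 and 91.1 CPM and cochlear non-sensory epithelium-like cells 88.4 and 79.3 CPM. Neuron-like cells, the class with the most UMIs, had 2.66 and 2.30 CPM, and cluster 25 had no Socs1 UMI in either library. Cluster 18 went with the low classes in noise only, at 8.74 CPM, and was next to endothelial-like cells (71.0 CPM) in AAV-Isl1 plus noise, at 69.0 CPM.

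Over all classes the share of member ratios past 1.5-fold on the high side was near the background, and the share on the low side was below it. Of 162 combinations of member and class, 130 had at least 20 UMIs, and 14 of them (10.8%) were at least 1.5-fold higher and 1 (0.769%) at least 1.5-fold lower. Over all gene and class combinations with 20 UMIs, 10.6% of 153954 were higher and 6.69% lower; no test was made of either difference. Of the 14, 5 were of Socs1, 3 of Irf9, 3 of Stat2 and 1 each of Ifnar2, Ifngr1 and Ifngr2. Ifnar1, Jak1 and Tyk2 had none. On thinning to 1000 UMIs, 3 of the 14 turned below 1, Ifngr2 in cluster 18 (0.612), Socs1 in macrophage-like cells (0.859) and Socs1 in stria intermediate cell-like cells (0.903).

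Among these combinations the receptor chains were at least 1.5-fold higher outside cluster 18 only in cluster 14, led by Igfbp6, where Ifnar2 had 74.9 CPM against 43.3 CPM (1.73, 1.12-2.74; 3.79, 1.72-9.87 under a stricter cell filter of 500 genes and 10% mitochondrial UMIs) and Ifngr1 33.9 CPM against 19.4 CPM (1.74, 0.909-3.57). The same cluster had Irf9 at 38.3 against 19.4 CPM (1.97, 1.04-4.00), Stat2 at 15.1 against 5.97 CPM (2.54, 0.827-10.4) and Socs1 at 23.2 against 11.9 CPM (1.94, 0.853-4.96). These are 5 members at least 1.5-fold higher and 0 lower, beside 9.74% and 6.84% of all measured genes of cluster 14. Cluster 14 missed the type I rule, with 10 of 15 genes above 1 and a median log2 ratio of 0.19. Its summed type I level was nonetheless 1624 against 1074 CPM (1.51, 1.39-1.65), and the gamma list was higher there (294 against 98.6 CPM). Its neutrophil markers summed to 196 against 8.96 CPM and its T or NK cell markers to 20.5 against 2.99 CPM, and their part was not tested.

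Some smaller differences in the receptors had intervals that excluded 1. Ifnar1 in stria intermediate cell-like cells was 60.3 CPM against 44.2 CPM (1.36, 1.06-1.76), and 0.994 (0.686-1.45) after thinning. Ifnar2 in pericyte or smooth muscle-like cells was 69.0 against 98.8 CPM (0.698, 0.514-0.940). Ifngr1 in T or NK cell-like cells was 469 against 661 CPM (0.710, 0.547-0.928), and 0.539 (0.376-0.773) under the same stricter filter. Ifngr2 in neuron-like cells was 44.9 against 53.1 CPM (0.845, 0.737-0.969), and Jak1 there was 158 against 177 CPM (0.893, 0.830-0.961). These receptor and kinase values were within 1.5-fold, and most lay on the low side, in classes without a higher response.

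Stat2 was also higher in macrophage-like cells, at 35.7 CPM against 19.9 CPM (1.80, 1.07-3.1), where Irf9 was 44.5 against 57.0 CPM (0.781, 0.544-1.12). Irf9 was higher in cochlear non-sensory epithelium-like cells, at 126 against 95.9 CPM (1.32, 1.01-1.72). Among the 18 classes, with 20 UMIs, the only value at least 1.5-fold lower was Irf9 in T or NK cell-like cells, at 34.1 against 60.8 CPM from 13 and 8 UMIs, with an interval that included 1 (0.561, 0.215-1.56). Summed over all kept cells Irf9 was 45.7 against 50.2 CPM (0.910, 0.850-0.974), the opposite side of 1 from clusters 18 and 27, and Ifnar2 was 93.2 against 103 CPM (0.903, 0.860-0.947).

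Because merged classes can hide differences between their clusters, the same values were taken in the 28 clusters with 90 cells or more in both libraries, a division chosen after seeing the data. By the type I rule 11 clusters had a higher response, among them 3 of the fibrocyte or mesenchymal-like class and 2 of the cochlear non-sensory epithelium-like class. Fibrocyte cluster 21 had 34 of 34 genes above 1 with a median log2 ratio of 1.32, and cluster 10 had 32 of 33 with 0.806. Cochlear cluster 28 had 12 of 13 with 0.901, whereas fibrocyte cluster 7 had 3 of 36 with -0.622. All of these lie in classes counted above as without a higher response. Stat2 was above 1 in 6 of 6 measured clusters with a higher response and in 5 of 15 without. Irf9 was above 1 in 8 of 9 with and 4 of 16 without. Socs1 was above 1 in 8 of 10 with and 11 of 13 without. For the receptor chains, Ifnar1 was above 1 in 2 of 6 with and 11 of 15 without, Ifnar2 in 4 of 10 and 5 of 17, Ifngr1 in 3 of 8 and 9 of 15, and Ifngr2 in 1 of 3 and 7 of 14. Jak1 was above 1 in 4 of 11 with and 8 of 17 without. Over all gene and cluster combinations 50.8% were above 1, 10.5% at least 1.5-fold higher and 7.72% at least 1.5-fold lower.

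Across clusters the log2 ratio of Irf9 went with the median log2 ratio of the type I list, with Pearson's r of 0.81 over 25 clusters and 0.68 over 23 without clusters 18 and 27. Stat2 had 0.67 over 21 clusters and 0.62 over 20. Socs1 had 0.38 over 22 clusters, and 0.15 over 21. Of the receptor chains, Ifnar2 had 0.35 over 27 clusters and 0.29 over 25, and Ifngr2 0.34 over 17 and -0.13 over 16. Ifnar1 had -0.23 over 21 clusters and Ifngr1 -0.20 over 23. The kinases Jak1 and Tyk2 had 0.063 over 28 and 0.086 over 8. All clusters share the same pair of libraries and each cluster's total divides both measures, so these values are a description.

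**Figure D5:**
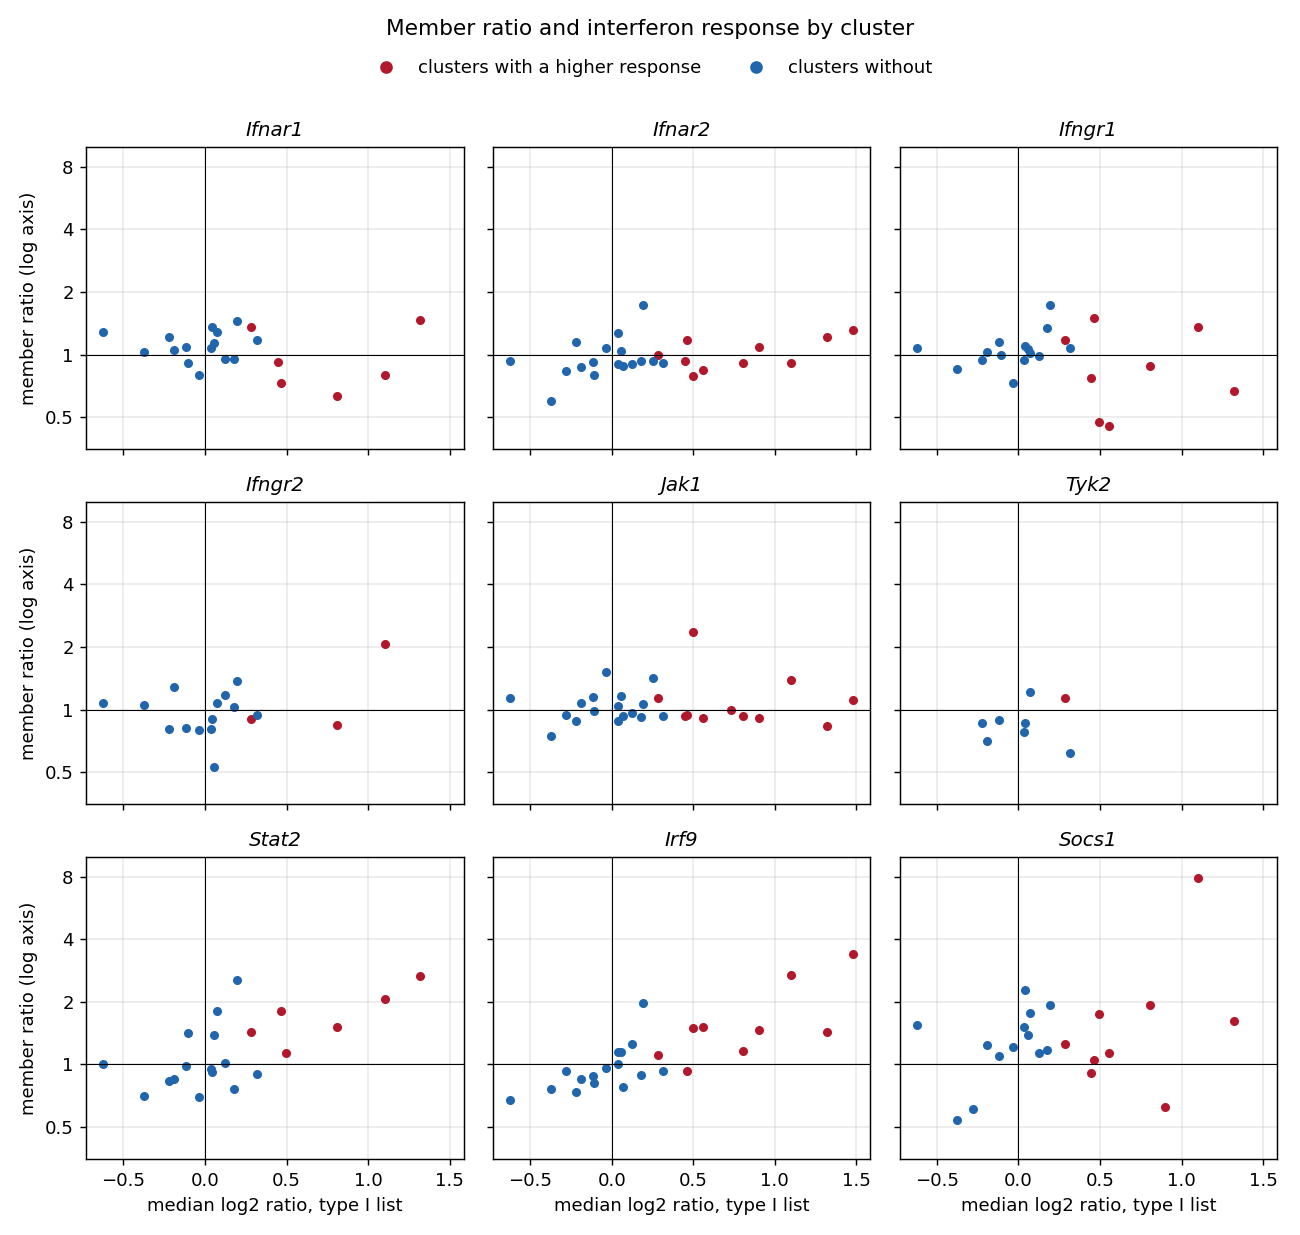
Ratio of each member, AAV-Isl1 plus noise over noise only (log axis), against the median log2 ratio of the type I interferon-stimulated genes, 1 point per cluster with at least 20 UMIs of the member, in red for clusters with a higher response and blue for those without. Points of Irf9 and Stat2 climb to the right (r of 0.81 and 0.67). Socs1, Ifnar2 and Ifngr2 have lower values (0.38, 0.35 and 0.34), and Jak1, Tyk2, Ifngr1 and Ifnar1 lie near or below 0 (0.063, 0.086, -0.20 and -0.23).

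The ratio of Socs1 varied between the clusters of the fibrocyte or mesenchymal-like class. The merged class gave Socs1 a ratio of 1.07 (0.964-1.18), but cluster 10 had 199 CPM against 103 CPM (1.94, 1.49-2.52), cluster 21 had 272 against 169 CPM (1.62, 1.25-2.09) and cluster 7 had 64.9 against 42.1 CPM (1.54, 1.07-2.26). The other clusters of the class had ratios of 1.05 to 1.38. Cluster 7 had no higher response, with 3 of 36 type I genes above 1. The clusters of the class held different shares of the cells in each library, 459 and 947 cells in cluster 10 and 1229 and 398 in cluster 6, where Socs1 was low (36.9 against 26.6 CPM). In pericyte or smooth muscle-like cluster 12 Socs1 was lower, at 40.0 against 73.6 CPM (0.543, 0.303-0.941), and so was Ifnar2, at 98.0 against 164 CPM (0.598, 0.415-0.851). In cluster 19 of that class Ifngr1 was 18 against 39.6 CPM (0.455, 0.190-0.982).

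Stat2 in fibrocyte cluster 21 was 55.4 CPM against 20.7 CPM (2.67, 1.35-5.45), and Irf9 there was 113 against 78.8 CPM (1.43, 0.964-2.13). In cochlear non-sensory epithelium-like cluster 5, led by Epyc and Tnnt2, Jak1 was 118 against 49.7 CPM (2.37, 1.36-4.14), Socs1 137 against 79.1 CPM (1.74, 1.08-2.78) and Irf9 145 against 97.5 CPM (1.49, 0.951-2.31).

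The ligands of these receptors were nearly absent from the counts. Of 21 interferon genes, 18 had no UMI in either library, Ifnb1 among them. Ifng, made by activated T and NK cells, had 46 UMIs in 31 cells in AAV-Isl1 plus noise, 27 of them T or NK cell-like, against 2 UMIs in 2 cells in noise only. In T or NK cell-like cells this was 110 CPM against 7.60 CPM, a ratio of 14.5 (2.46-586) with 1 UMI in noise only. Cluster 18 and cluster 27 had no Ifng UMI. Ifnk, a type I interferon known from keratinocytes, had 174 against 160 UMIs, with the most cells in the stria intermediate cell-like class (76 and 61), where its level was 31.1 against 28.2 CPM (1.10, 0.786-1.55). That class also had the highest Ifnar2.

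The interferon lambda receptor has its own chain, Ifnlr1, and shares Il10rb with interleukin receptors. Ifnlr1 had 56 and 45 UMIs in all, 17 and 8 of them in cluster 18 (14.7 against 7.77 CPM, 1.89, 0.772-5.06). Il10rb, the neighbour of Ifnar2 on chromosome 16, was at 50.9 against 61.2 CPM in cluster 18 (0.832, 0.573-1.21) and highest in stria intermediate cell-like cells, at 304 against 334 CPM.

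Of the other pathway genes in cluster 18, the targets were mostly higher and the negative regulators and sensors were mixed. Of 30 measured type I genes 22 were at least 1.5-fold higher and 0 lower, among them Ifit1 at 437 against 61.2 CPM (7.14, 5.48-9.43). All 16 measured interferon gamma targets were higher, including the transcription factor Irf1 at 342 against 64.1 CPM (5.33, 4.10-7.03) and the GTPase Iigp1 at 348 against 8.74 CPM (39.8, 20.8-87.7). Of 16 negative regulators other than Socs1, 5 were higher and 2 lower, with a median log2 ratio of 0.06 against 0.02 for all genes, and Usp18, a member of both this list and the type I list, was 30.2 against 10.7 CPM. Of 6 measured interferon regulatory factors other than Irf9, 3 were higher and 0 lower. This list shares Irf1 with the gamma list and Irf7 with the type I list, so its count is not separate from theirs.

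Socs3, the relative of Socs1 that acts mainly on interleukin signalling, was among the higher negative regulators at 620 against 345 CPM (1.80, 1.58-2.05). Socs2 was not, at a ratio of 0.841 (0.715-0.988). Of 7 measured sensors and adaptors 2 were higher and 1, the RNA-sensor adaptor Mavs, lower (0.444, 0.186-0.995). The sensor list shares Ddx58, Ifih1 and Dhx58 with the type I list. In cluster 27, 13 of 17 type I genes were higher and 0 lower, and the RNA sensor Tlr3 was 96.4 against 38.5 CPM (2.51, 1.06-7.21).

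Genes whose level over the 18 classes was most like that of each member were taken by Pearson's r of log2(CPM + 5) over the classes, from genes with at least 500 UMIs. Irf9 was most like Rtp4 (0.896), Irf2bpl (0.889) and Trim26 (0.867). Stat2 was most like Eif2ak2 (0.861), Rin2 (0.846) and Parp12 (0.841), and Socs1 most like Irf1 (0.851), Isg15 (0.843) and Sertad1 (0.840). Ifngr1 went with Stk17b (0.921) and Tap1 (0.913), Ifnar2 with Iqgap1 (0.851) and B2m (0.833), and Ifnar1 with Topbp1 (0.879), while Tyk2 had too few UMIs for this measure. Among the members the highest value was 0.82, between Ifnar1 and Ifngr1, and then 0.77 between Stat2 and Irf9. The classes share both libraries and differ in depth, so these values describe the tissue and carry no test.

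In noise only the level of some members went with the standing level of interferon-stimulated genes. Across classes with 20 UMIs of the member, the noise only level of Ifnar2 and the summed noise only level of the type I list had a Pearson's r of 0.89 over 17 classes, that of Irf9 0.72 over 16 and that of Stat2 0.67 over 14. Ifnar1, Ifngr1 and Jak1 had 0.22 over 15, 0.21 over 15 and -0.05 over 18. Both measures come from the same library and are divided by the same class totals. The level of Ifnar2 over both libraries had an r of -0.15 with the class's type I ratio.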

How the data were processed

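Single-cell RNA was measured with 10x Genomics 3' libraries, 1 per group. Cell Ranger 5.0, STAR and Seurat 3.2.2, with build mm10 (GRCm38), are named in the submitters' processing notes, and the matrix headers name Cell Ranger 5.0.1. The deposited values are UMI counts per gene and barcode, with no normalization by the authors; every barcode had at least 500 UMIs.

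A barcode was kept when 300 genes or more were detected and mitochondrial genes gave 20% of its UMIs or less. Scrublet's automatic threshold called 0 doublets, so a score of 0.195, set from an expected doublet rate of 0.06 in the noise only library, was used for both, and 937 and 1196 cells were removed. Cells were clustered with scanpy 1.11.5 (2000 variable genes per library, 50 components, 15 neighbours, Leiden resolution 1.0); 2 clusters were split at 0.3 after being seen. Of 40 clusters, 33 were named from at least 3 markers. The named classes may differ from the authors' own.

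UMIs were summed per class and divided by the class total, in place of a count model, because each group has 1 library. Intervals for levels (Poisson), ratios (conditional binomial), shares (Clopper-Pearson) and common ratios are exact. A value was called past 1.5-fold with at least 20 UMIs over both libraries; the ratio scripts were tested on simulated data. Members and lists were chosen with earlier results of these data known. All members are named; other genes are those of the pathway lists, by counts, with values for some chosen after they were seen, and the 3 genes most like a member. The list of other kinases and transducers of the pathway is not reported here. Genome positions come from GENCODE vM21 and promoters from RefSeq.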

Additional observations from a re-analysis of the deposited data

How the results depend on the processing

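Of 294 recomputed main values 262 stayed within their interval and 32 moved; of 868 values by class 838 stayed, 26 moved and 4 reversed. Common ratios are given for classes with a higher response unless said otherwise. The set of classes called also changed. Under the stricter cell filter (500 genes, 10% mitochondrial UMIs) it was T or NK cell-like cells and clusters 18 and 27, with Ifnar1 0.757 and Ifngr1 0.777. With no doublets removed it was 1 class of 17, and Ifnar1 was 0.717. Thinned to 1000 UMIs, with cochlear non-sensory epithelium-like in place of hair cell-like cells, Socs1 was 1.90 (1.33-2.73), and in the classes without, Ifngr2 was 1.07 and Tyk2 1.32. With a median limit of 0.5 Irf9 was 2.83 and Socs1 8.77. Without unnamed clusters only hair cell-like cells remained, with Ifnar2 0.691 and Ifngr2 0.587, from 11 and 7 and from 4 and 3 UMIs, under the 20 required elsewhere, and Jak1 1.00. Counting listed genes from 1 UMI left 1 class with a higher response, and the interferon gamma list gave 11. Shares in cluster 18 without thinning were 20.0% and 10.8% for Irf9 and 10.8% for Socs1.

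Alternatives chosen after seeing the data were these. Split by the gamma list, Irf9 was 1.03, Jak1 0.948, Socs1 1.18 and Stat2 1.14, and in the classes without, Ifnar2 was 0.857, Ifngr1 0.837, Jak1 0.986, Stat2 0.861 and Tyk2 0.695. Clustering seed 1 gave 2 classes, Ifngr2 1.89 and Socs1 8.70, and seed 2 gave 2 classes and Socs1 7.88. With clusters as strata Irf9 was 1.5 and Socs1 1.54. The cause was not tested. Reversed by class were, thinned, Ifngr2 in cluster 18 (0.612), Socs1 in macrophage-like cells (0.859) and Socs1 in stria intermediate cell-like cells (0.903), and with no doublets removed Socs1 in macrophage-like cells (0.932).

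Over 6 settings that keep cluster 18, Irf9 there ranged over 2.67 to 2.99, Stat2 2.06 to 2.77, Socs1 6.12 to 27.4, Ifngr2 0.612 to 7.96, Jak1 1.16 to 1.42, Ifngr1 1.19 to 1.40, Ifnar1 0.699 to 0.834 and Ifnar2 0.800 to 0.926. The 27.4 and 7.96 came from leaving out 5 cells of each library, which left few noise only UMIs. No paired analysis was possible because each group is a single library of pooled ears, and for the same reason no replicate could be left out. Low numbers of UMIs limit the ratios in hair cell-like cells (324 and 94 cells) and cluster 27 (293 and 90 cells), and most ratios of Tyk2.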
